A study of Drosophila melanogaster with 6 samples.

Results

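The transcripts described here differed in S2 cells treated with RNA interference (RNAi) against CP190, while CG9740 RNAi and the LacZ RNAi control stayed close to each other. S2 is an established embryonic line of Drosophila melanogaster with features of hemocytes, the fly blood cells. The groups compared were CP190 RNAi, CG9740 RNAi and LacZ RNAi, all in S2 cells with no other genotype, treatment or time given in the labels, and LacZ is a bacterial gene that serves as the non-targeting control. Each group had 2 arrays, described in the series design as biological replicates, and no probe-level values, cell counts or measure of CP190 protein were analysed here.

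A probe set is a group of short probes on an Affymetrix array that together report a transcript, and its value is given on a log2 scale, where a difference of 1 is a 2-fold difference in signal. A probe set was included when both CP190 arrays lay above, or both below, all 4 CG9740 and LacZ arrays. The CP190 mean also had to differ by at least 0.4 from both other means, the CG9740 and LacZ means had to lie less than 0.4 apart, and the highest group mean had to reach 6. The members were thus chosen by their own array values. Of 18769 probe sets, 66 met the rule, 36 higher and 30 lower in CP190 RNAi. The rule used every contrast among the 6 arrays, so the levels and differences of these 66 are a description without a test.

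CP190 is a zinc finger protein with a BTB domain that sits at centrosomes in mitosis and on chromatin in interphase. On chromatin it is a shared partner of several fly insulator proteins, which bind DNA and limit contact between an enhancer and the promoters of neighbouring genes. The gene CG9740 now carries the name Ibf2, per RefSeq. It encodes an insulator binding factor that, with its close relative Ibf1, is known to recruit CP190 to DNA.

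Both CP190 arrays lay above the other 4 arrays in 6.88% of all probe sets and below them in 5.89%, so this separation alone is common with 2 arrays per group. The whole rule was met by 0.192% of all probe sets in the higher direction and by 0.160% in the lower. With the CG9740 arrays in the place of the CP190 arrays, the same rule found 16 higher and 12 lower probe sets. With the LacZ arrays apart from both knockdowns, it found 36 probe sets higher in LacZ RNAi and 70 lower. Leaving out 1 array changed the sets. The number of higher probe sets was 74 without CG9740 replicate 2 and 65 without CP190 replicate 1, and the number of lower ones was 49 without CP190 replicate 1. Separation is easier to meet with fewer arrays, so other probe sets can enter. Of the 36 higher probe sets, 16 met the rule whichever array was left out, as did 12 of the 30 lower ones. A member stays separated when an array is dropped, so only the limits on the group means could remove it.

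**Figure D1:**
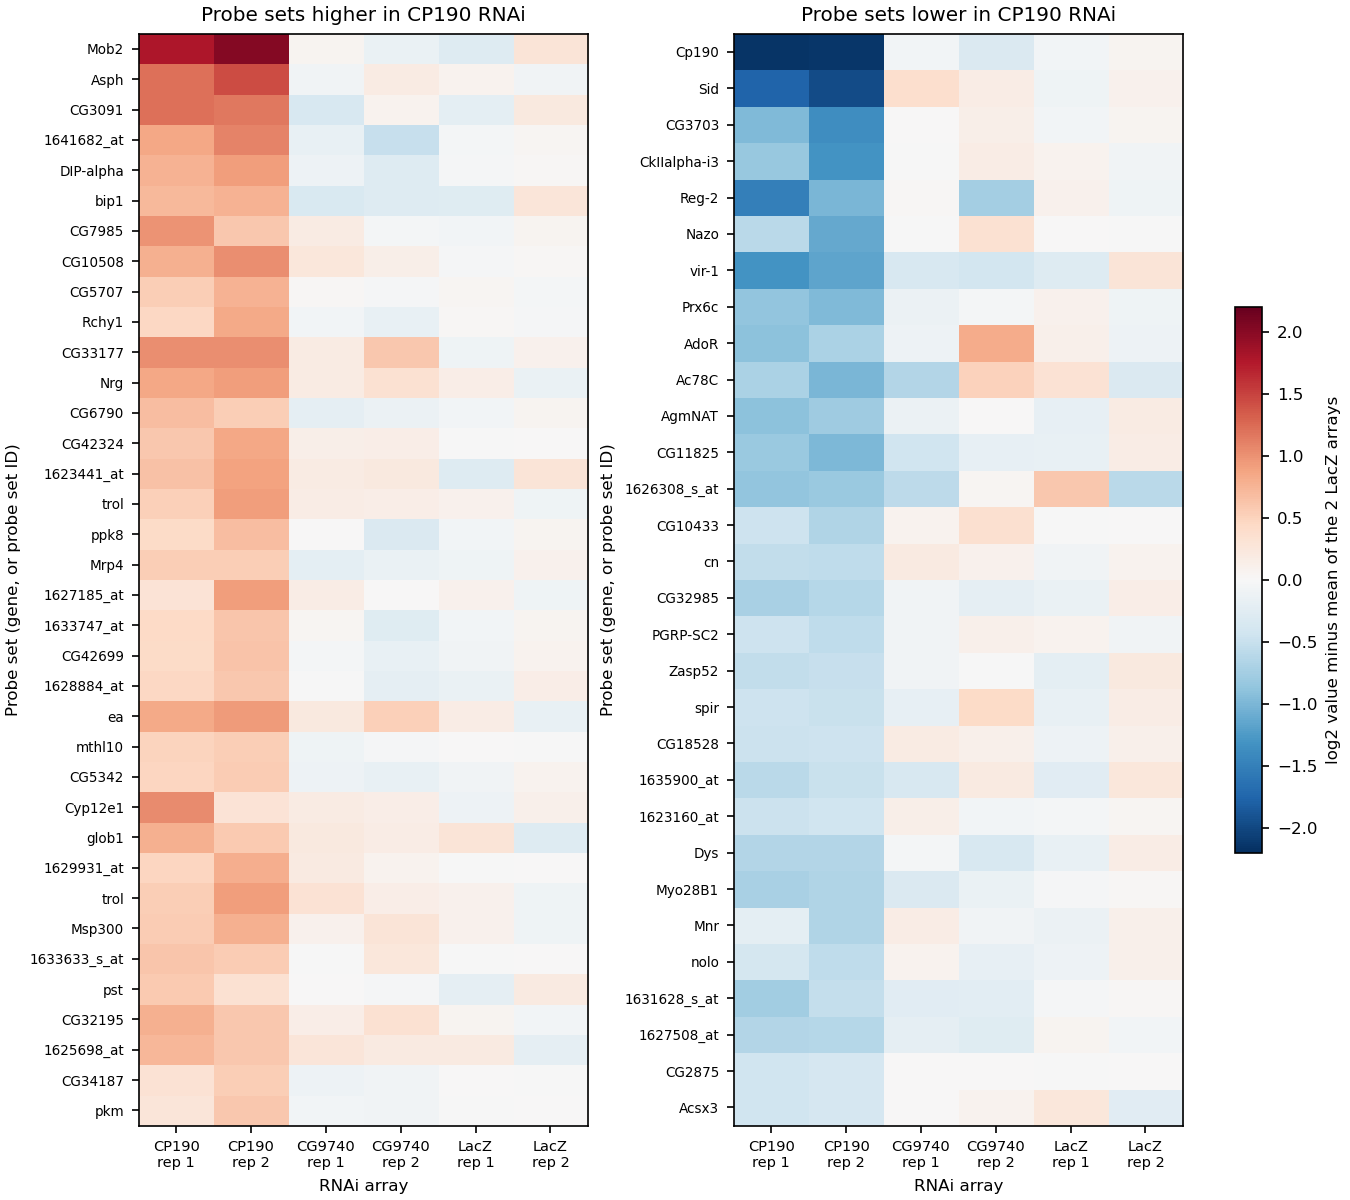
Log2 value of each of the 66 probe sets on each array, minus the mean of the 2 LacZ arrays, with the 36 higher in CP190 RNAi on the left and the 30 lower on the right, ordered by the smaller of their differences from CG9740 and LacZ RNAi. The rule itself sets the CP190 arrays apart in every row, and in some, such as Ac78C, only narrowly. Single CG9740 or LacZ arrays also lie far from the LacZ mean in some rows. Examples are CG9740 replicate 2 of AdoR and both CG9740 arrays of Ac78C. Mob2, Cp190 and Sid stand at the extremes.

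A single gene name was given for 28 of the 36 higher probe sets, which stand for 27 genes because trol has 2 of them. Of the other 8, 1 names several genes and 7 name none. Among the 30 lower probe sets, 25 name 1 gene each, 1 names several and 4 name none. The differences from LacZ RNAi ran between 0.43 and 1.90 with a median of 0.67 for the higher set, and between -2.15 and -0.40 with a median of -0.66 for the lower set. Over all probe sets the median difference was -0.01. Against CG9740 RNAi the higher set ran between 0.43 and 1.95 and the lower set between -2.13 and -0.41. The CG9740 mean was above the LacZ mean in 18 of the 36 and in 14 of the 30. The median SD between the CP190 arrays was 0.155 in the higher set and 0.0775 in the lower set, beside 0.0731 over all probe sets. A 2-fold or larger difference from both groups was measured in 3 of the higher and 4 of the lower probe sets. The brightest of 27 Bacillus control probe sets, which target no fly gene, averaged 6.07. In 10 of the 36 and 7 of the 30, at least 1 group mean lay below that level, so their differences give no exact fold.

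**Figure D2:**
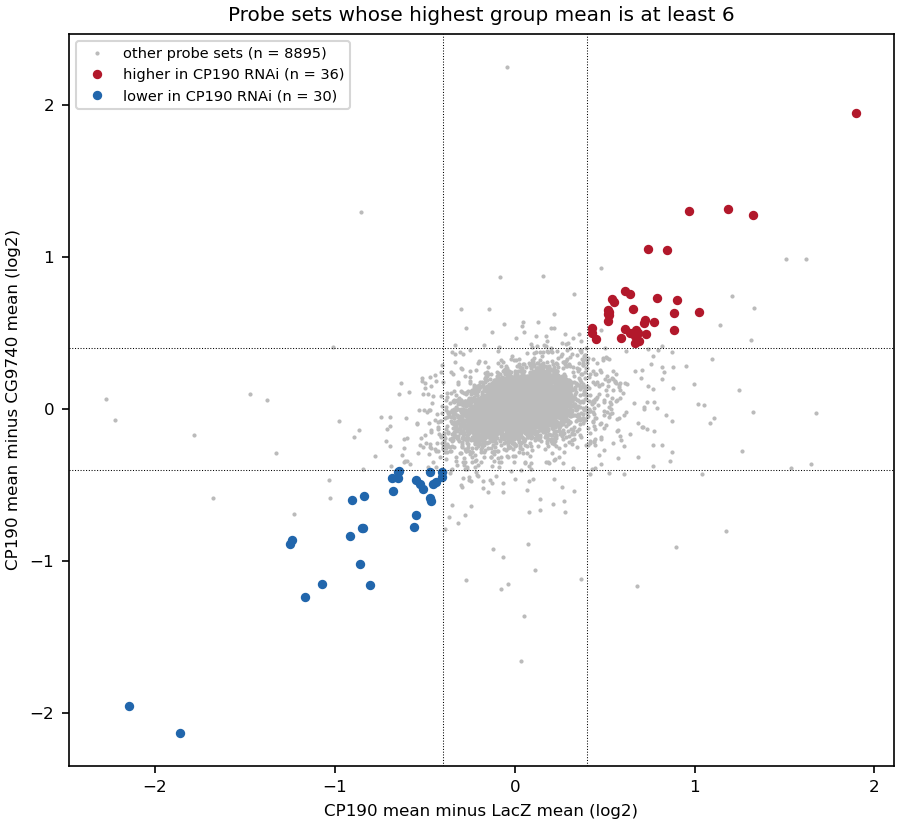
Difference of the CP190 mean from the LacZ mean (x axis, log2) against its difference from the CG9740 mean (y axis, log2) for 8961 probe sets whose highest group mean is at least 6, with dotted lines at 0.4 and -0.4. Both axes share the CP190 arrays, and the 36 higher (red) and 30 lower (blue) probe sets lie in the corners that the rule selects.

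The RNAi targets were examined first. The Cp190 probe set read 9.71 and 9.72 in CP190 RNAi, 11.80 and 11.54 in CG9740 RNAi and 11.81 and 11.92 in LacZ RNAi. Its means were 9.72 ± 0.01 in CP190 RNAi, 11.67 ± 0.18 in CG9740 RNAi and 11.86 ± 0.08 in LacZ RNAi (SD, n = 2 each). Both CP190 arrays lay far below the others, and this was the largest difference from LacZ RNAi among the 30 lower probe sets, at -2.15 (4.42-fold lower than in LacZ RNAi and 3.87-fold lower than in CG9740 RNAi). The labelled target was thus low in the samples labelled for it. Zip88E, a zinc transporter gene that overlaps Cp190 in the RefSeq table, has a probe set of its own, and its means were 8.02 in CP190 RNAi, 8.04 in CG9740 RNAi and 7.99 in LacZ RNAi. The other target, Ibf2, read 9.33 and 9.52 in CP190 RNAi, 7.05 and 7.30 in CG9740 RNAi and 9.30 and 9.64 in LacZ RNAi. Only the CG9740 arrays were low. Ibf1 read 8.50 and 8.52 under CP190 RNAi, 9.57 and 9.39 under CG9740 RNAi and 8.58 and 8.57 under LacZ RNAi. The CG9740 arrays stood above the rest, and the CP190 arrays lay beside those of LacZ RNAi.

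The 9 lower genes ranked next by the smaller of their differences from CG9740 and LacZ RNAi follow, together with PGRP-SC2. Sid encodes a stress induced DNase. Its values were 6.65 and 6.45 under CP190 RNAi, 8.78 and 8.58 under CG9740 RNAi and 8.33 and 8.50 under LacZ RNAi, which puts it 3.63-fold lower than LacZ RNAi and 4.37-fold lower than CG9740 RNAi. The CG9740 arrays stood slightly above the LacZ arrays, and the gap between the CP190 arrays and the nearest other array was 1.67. A gene named for its induction by virus, vir-1, read 7.03 and 7.18 under CP190 RNAi, 7.98 and 7.94 under CG9740 RNAi and 8.05 and 8.63 under LacZ RNAi. No overlap was seen, but the LacZ arrays lay apart from each other, and the CP190 difference was -1.24 from LacZ RNAi and -0.86 from CG9740 RNAi. It left the set without CG9740 replicate 1 or LacZ replicate 1. Nazo, an antiviral gene placed downstream of STING in flies, read 6.30 and 5.77 under CP190 RNAi, 6.88 and 7.23 under CG9740 RNAi and 6.91 and 6.88 under LacZ RNAi. The CP190 arrays themselves differed by more than the distance between the LacZ arrays, and the higher of them still lay 0.58 below every other array. PGRP-SC2, an amidase that degrades peptidoglycan, is named here after its values were seen. It read 7.04 and 6.94 under CP190 RNAi, 7.41 and 7.62 under CG9740 RNAi and 7.57 and 7.42 under LacZ RNAi, a smaller difference of -0.51 from LacZ RNAi.

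CG3703, CkIIalpha-i3 and Reg-2 were lower as well. CG3703 read 7.97 and 7.58 under CP190 RNAi, 8.94 and 9.08 under CG9740 RNAi and 8.89 and 9.0 under LacZ RNAi (2.25-fold lower than LacZ RNAi). CkIIalpha-i3, named as an interactor of the catalytic subunit of casein kinase 2, read 7.56 and 7.08 under CP190 RNAi, 8.38 and 8.56 under CG9740 RNAi and 8.47 and 8.32 under LacZ RNAi, or 2.1-fold lower than LacZ RNAi. In both genes the CG9740 and LacZ arrays formed a tight group with the CP190 arrays below it. Reg-2, a gene first described for its daily rhythm, read 7.30 and 7.80 under CP190 RNAi, 8.82 and 8.04 under CG9740 RNAi and 8.89 and 8.70 under LacZ RNAi. CG9740 replicate 2 lay near the CP190 arrays there, 0.24 above the higher of them, and Reg-2 no longer met the rule without CG9740 replicate 1 or LacZ replicate 2.

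A receptor, a cyclase and a peroxiredoxin complete these 10 genes. AdoR, the fly adenosine receptor, read 6.01 and 6.21 under CP190 RNAi, 6.79 and 7.74 under CG9740 RNAi and 7.02 and 6.81 under LacZ RNAi. CG9740 replicate 2 was far above its partner, so the difference from CG9740 RNAi (-1.16) was larger than that from LacZ RNAi (-0.80), and the gene left the set without CG9740 replicate 1 or LacZ replicate 1. Ac78C, an adenylyl cyclase that makes cyclic AMP, read 5.61 and 5.30 under CP190 RNAi, 5.66 and 6.82 under CG9740 RNAi and 6.62 and 6.0 under LacZ RNAi. The groups barely separate, since the higher CP190 array was 0.05 below a CG9740 array, and Ac78C left the set without either CG9740 array. Prx6c, of the peroxiredoxin 6 family that reduces peroxides, read 5.40 and 5.29 under CP190 RNAi, 6.14 and 6.22 under CG9740 RNAi and 6.37 and 6.16 under LacZ RNAi. The CP190 mean of Prx6c lay below the brightest Bacillus control, as did those of Ac78C and Nazo.

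**Figure D3:**
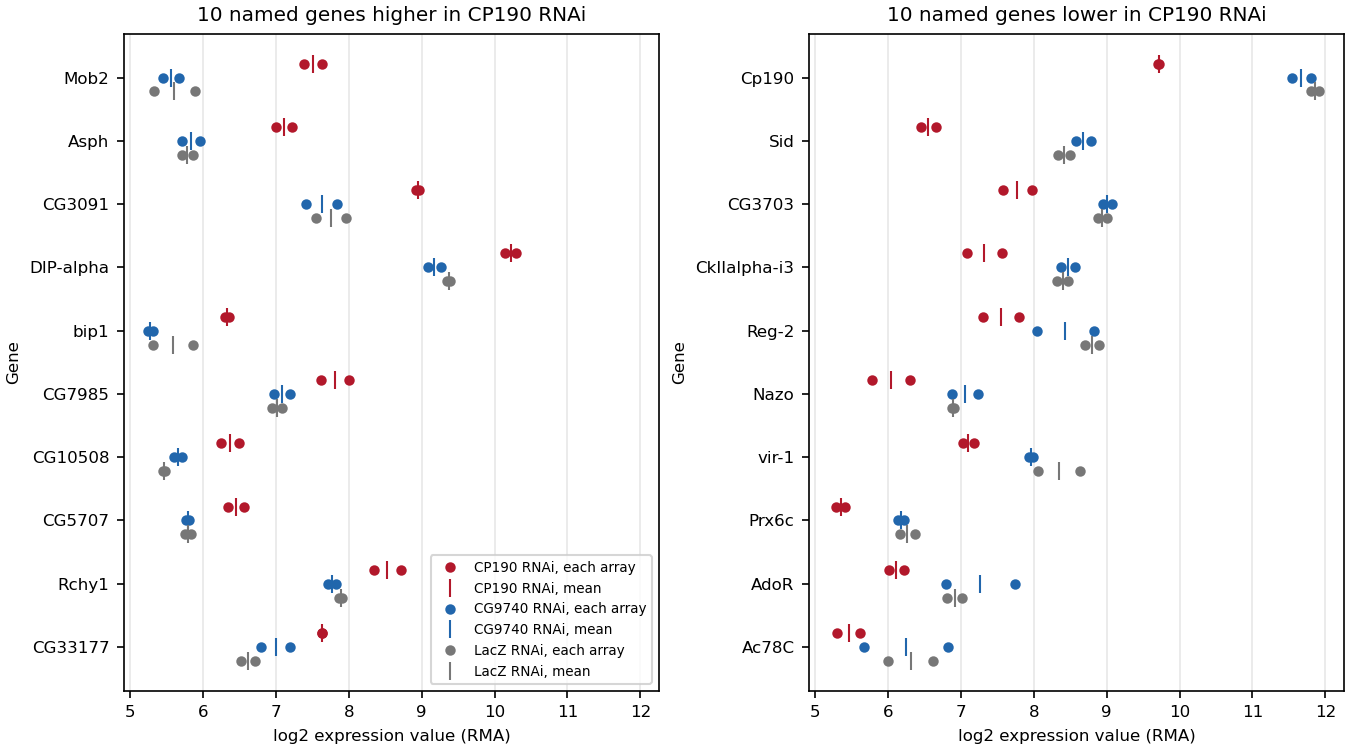
Log2 expression value on each array (points) and group mean (vertical marks) of the 10 genes each way ranked by the smaller of their differences from CG9740 and LacZ RNAi, with CP190 RNAi drawn above CG9740 RNAi and LacZ RNAi in each row. Cp190 and Sid show the widest gap below the other arrays and Mob2 the widest gap above them, whereas a CP190 array of Ac78C comes within 0.05 of a CG9740 array.

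Among the higher genes Mob2 had the largest difference. Mob2 encodes a MOB family protein that acts with the NDR kinase Tricornered in cell shape and neurite outgrowth. Its probe set read 7.38 and 7.63 under CP190 RNAi, 5.67 and 5.45 under CG9740 RNAi and 5.33 and 5.88 under LacZ RNAi, a difference of 1.90 from LacZ RNAi and 1.95 from CG9740 RNAi. Asph, named for the enzyme that hydroxylates aspartyl and asparaginyl residues, read 7.0 and 7.22 under CP190 RNAi, 5.71 and 5.96 under CG9740 RNAi and 5.86 and 5.71 under LacZ RNAi. For both genes the other 4 arrays lay below the brightest Bacillus control, and the CP190 arrays lay above it. CG3091 read 8.97 and 8.92 under CP190 RNAi, 7.41 and 7.84 under CG9740 RNAi and 7.55 and 7.97 under LacZ RNAi and was well above that level on every array, 2.28-fold higher than LacZ RNAi and 2.49-fold higher than CG9740 RNAi.

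DIP-alpha encodes a cell surface immunoglobulin protein that pairs with Dpr proteins in synaptic matching. It read 10.14 and 10.30 under CP190 RNAi, 9.26 and 9.09 under CG9740 RNAi and 9.35 and 9.39 under LacZ RNAi, and the CP190 arrays were 0.75 above the nearest other array. The level was 1.8-fold higher than in LacZ RNAi and 2.06-fold higher than in CG9740 RNAi. Bip1, written bip1 in the files and named as an interactor of bric-a-brac, read 6.31 and 6.35 under CP190 RNAi, 5.25 and 5.31 under CG9740 RNAi and 5.32 and 5.86 under LacZ RNAi. Its CP190 arrays were close together just above the Bacillus level, and LacZ replicate 2 lay nearest to them. The gene left the set without LacZ replicate 1. Rchy1, named for a human RING finger ubiquitin ligase, read 8.34 and 8.72 under CP190 RNAi, 7.83 and 7.72 under CG9740 RNAi and 7.91 and 7.87 under LacZ RNAi, with the 4 other arrays tightly grouped below both CP190 arrays.

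The remaining 4 of the 10 leading higher genes are known here by number. CG7985 read 8.0 and 7.62 under CP190 RNAi, 7.19 and 6.97 under CG9740 RNAi and 6.95 and 7.08 under LacZ RNAi. CG10508 read 6.24 and 6.49 under CP190 RNAi, 5.71 and 5.60 under CG9740 RNAi and 5.45 and 5.48 under LacZ RNAi. These 2 showed the CP190 arrays clearly above a narrow group of other arrays, at differences from LacZ RNAi of 0.79 and 0.90. CG5707 read 6.34 and 6.56 under CP190 RNAi, 5.81 and 5.76 under CG9740 RNAi and 5.84 and 5.75 under LacZ RNAi. The CG9740 and LacZ arrays of CG10508 and CG5707 lay below the brightest Bacillus control. CG33177 read 7.63 and 7.64 under CP190 RNAi, 6.80 and 7.20 under CG9740 RNAi and 6.51 and 6.71 under LacZ RNAi. The CG9740 arrays of CG33177 lay between the others, 0.39 above the LacZ mean, and it left the set without CG9740 replicate 1 or LacZ replicate 2. A probe set with no gene name ranked between CG3091 and DIP-alpha and read 9.72 and 9.96 under CP190 RNAi, 8.70 and 8.37 under CG9740 RNAi and 8.82 and 8.92 under LacZ RNAi. Its CP190 arrays were clearly above the others.

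The rest of both sets had smaller differences, and genes are named from here on after their values were seen. The L1-type adhesion molecule Nrg was 0.88 above LacZ RNAi and 0.63 above CG9740 RNAi. The gene trol encodes perlecan, a basement membrane proteoglycan, and is described with its other probe sets. The serine protease easter, ea, which activates the Toll ligand in the embryo, was 0.89 and 0.52 higher, with a CG9740 mean 0.37 above LacZ RNAi. The receptor gene mthl10 was 0.52 and 0.58 higher. Msp300, a nesprin that ties nuclei to the cytoskeleton, was 0.67 and 0.48 higher, on a bright probe set that read 10.62 and 10.85 under CP190 RNAi, 10.15 and 10.35 under CG9740 RNAi and 10.15 and 9.98 under LacZ RNAi. Further higher genes were the globin glob1 (0.68 and 0.50), the cytochrome P450 gene Cyp12e1 (0.68 and 0.52) and pst (0.45 and 0.46), known for its part in resistance to Drosophila C virus. Cyp12e1 read 6.80 and 6.06 on the CP190 arrays, so replicate 1 carries most of its difference, and it left the set without that array. The CG9740 and LacZ means of Cyp12e1 and ea lay below the brightest Bacillus control. CG42324 (0.73 and 0.59), CG42699 (0.52 and 0.62) and CG32195 (0.69 and 0.45) were higher as well. Nrg left the set without LacZ replicate 1, and ea without CG9740 replicate 1 or LacZ replicate 1. Msp300 left it without CG9740 replicate 1 or CP190 replicate 2, and both trol probe sets without CP190 replicate 2. Without CP190 replicate 1, glob1, pst and CG32195 left. Either LacZ array had the same effect for glob1, LacZ replicate 1 for pst and CG9740 replicate 1 for CG32195. The 8 probe sets without a single gene were between 0.52 and 0.97 above LacZ RNAi and between 0.43 and 1.31 above CG9740 RNAi.

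Among the lower genes were the Z-disc and integrin-site protein Zasp52 (-0.53 from LacZ RNAi and -0.49 from CG9740 RNAi), the actin nucleator spir (-0.47 and -0.59), dystrophin, Dys (-0.65 and -0.45), and the myosin Myo28B1 (-0.68 and -0.45). Of these, spir left the set without CG9740 replicate 1, CG9740 replicate 2 or LacZ replicate 2. Zasp52 left it without LacZ replicate 2, Dys without CG9740 replicate 1 and Myo28B1 without CG9740 replicate 2. The CP190 means of spir (5.93) and Myo28B1 (5.48) lay below the brightest Bacillus control. The kynurenine 3-monooxygenase gene cn, cinnabar, read 7.46 and 7.43 under CP190 RNAi, 8.19 and 8.08 under CG9740 RNAi and 7.92 and 8.06 under LacZ RNAi. AgmNAT, an agmatine N-acetyltransferase, read 6.43 and 6.57 under CP190 RNAi, 7.21 and 7.35 under CG9740 RNAi and 7.16 and 7.53 under LacZ RNAi. In both genes the groups were well apart, with the CG9740 and LacZ arrays together. The acyl-CoA synthetase family gene Acsx3 differed by -0.40 and -0.45, with LacZ replicate 2 only 0.12 above the CP190 arrays. CG11825 and CG2875 are described with their chromosomal neighbours. The remaining named lower genes were CG10433 (-0.56 and -0.78), CG32985 (-0.68 and -0.54), CG18528 (-0.47 and -0.61), Mnr (-0.44 and -0.48) and nolo (-0.47 and -0.41). Mnr and nolo left the set without CG9740 replicate 1, CP190 replicate 2 or LacZ replicate 2. CG18528 left it without LacZ replicate 2, and Acsx3 without CP190 replicate 1 or LacZ replicate 1. The 5 lower probe sets without a single gene were between -0.84 and -0.46 from LacZ RNAi and between -0.57 and -0.41 from CG9740 RNAi.

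At the edge of the rule the members and the probe sets just outside it look alike. The 3 higher probe sets nearest to 0.4 had smaller differences of 0.43 each and included pkm (0.43 from LacZ RNAi) and CG34187 (0.43). Outside, the nearest with a gene name was CG32814, at 0.39 from LacZ RNAi and 0.40 from CG9740 RNAi. Among the lower probe sets, Acsx3 and CG2875 (-0.40 and -0.42) lay just inside. Short of it, before rounding, by at least 1 difference were pippin (-0.40 and -0.40), Cln7 (-0.39 and -0.41) and CG13896 (-0.48 and -0.38).

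Other probe sets of the same genes were not used by the rule, although they share its arrays. The higher genes had 22 such probe sets in 11 genes, and in 13 of them the CP190 mean was the highest of the 3 group means, as it was in 32.5% of all probe sets. Their median difference was 0.37 from LacZ RNAi and 0.20 from CG9740 RNAi. For the lower genes, the CP190 mean was the lowest in 7 of 10 such probe sets in 5 genes, beside 29.8% of all probe sets, with medians of -0.27 and -0.27. Those of CG10508 were 1.0 and 0.53 above LacZ RNAi, at levels below the brightest Bacillus control. A bright probe set of Nrg was 0.82 above LacZ RNAi and 0.42 above CG9740 RNAi. Both other probe sets of nolo, a matrix protein gene of the ADAMTS-like family, differed by -0.35 and -0.45 from LacZ RNAi, and those of spir by -0.27 and -0.28.

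The exceptions among the higher genes were all 6 other probe sets of trol and 1 each of Mob2, mthl10 and Msp300, and among the lower genes 3 of the 4 of Dys. One of the 2 trol probe sets in the higher set read 7.81 and 8.20 under CP190 RNAi, 7.45 and 7.43 under CG9740 RNAi and 7.39 and 7.19 under LacZ RNAi. The other read 6.31 and 6.70 under CP190 RNAi, 6.09 and 5.93 under CG9740 RNAi and 5.87 and 5.68 under LacZ RNAi. In both the CP190 arrays were above the rest. Another probe set of trol read 10.61 and 10.57 under CP190 RNAi, 10.53 and 11.12 under CG9740 RNAi and 10.21 and 9.33 under LacZ RNAi. There CG9740 replicate 2 was the highest array, CG9740 replicate 1 lay just under the CP190 arrays, and the CP190 mean was -0.24 relative to CG9740 RNAi. In 5 of the 6 other trol probe sets the CP190 mean was above LacZ RNAi and below CG9740 RNAi, so most probe sets of this gene did not show a level that stands apart in CP190 RNAi. The second Mob2 probe set read 8.42 and 8.88 under CP190 RNAi, 8.46 and 8.49 under CG9740 RNAi and 8.58 and 8.85 under LacZ RNAi. Its groups overlapped, with a CP190 difference of -0.07 from LacZ RNAi. The other mthl10 probe set differed by -0.06 from LacZ RNAi and 0.10 from CG9740 RNAi. The Dys probe set with values well above the Bacillus level read 8.40 and 8.66 under CP190 RNAi, 8.58 and 8.48 under CG9740 RNAi and 8.75 and 8.99 under LacZ RNAi. Its CP190 and CG9740 arrays overlapped, and the CP190 mean was -0.34 from LacZ RNAi. The other 2 Dys exceptions were dim and differed by 0.01 each from LacZ RNAi. Which transcripts of these genes each probe set detects was not analysed here.

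**Figure D4:**
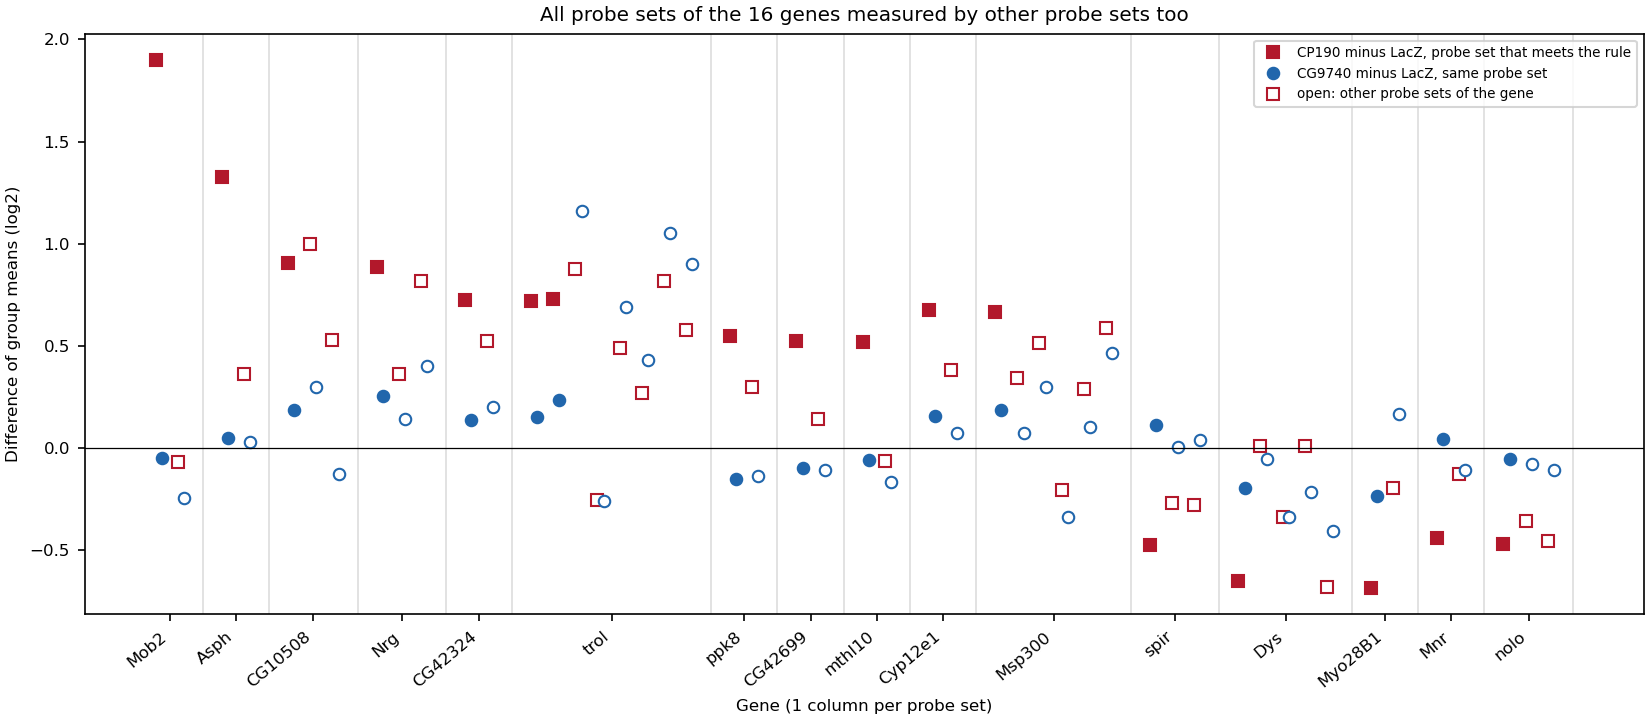
Difference of the CP190 mean (squares) and of the CG9740 mean (circles) from the LacZ mean (y axis, log2) for every probe set of the 16 genes that have other probe sets beside those that met the rule (filled: met the rule, open: did not). In trol most open circles lie above the open squares, whereas in Nrg, CG10508, spir and nolo the squares of all probe sets lie on the same side of 0.

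Because insulators act between neighbouring genes, the order of the member genes along the chromosomes was taken from the RefSeq table. The rule made no use of it. Of 51 member genes found there, several were direct neighbours. How often other sets of 51 genes would hold direct neighbours was not tested. On arm 3R, Mrp4, CG6790 and CG5342 follow each other with 0 genes between them, and all were in the higher set. Mrp4 and CG6790 overlap each other in the RefSeq table, and CG5342 overlaps neither. Each has a probe set of its own, but whether the probes of Mrp4 and CG6790 lie in their shared part was not analysed. The signals of these overlapping genes may therefore not be independent. Mrp4, an ABC transporter of the multidrug resistance family, read 9.10 and 9.12 under CP190 RNAi, 8.35 and 8.42 under CG9740 RNAi and 8.48 and 8.66 under LacZ RNAi. CG6790 read 7.86 and 7.72 under CP190 RNAi, 6.97 and 7.06 under CG9740 RNAi and 7.11 and 7.24 under LacZ RNAi, and CG5342 read 7.63 and 7.72 under CP190 RNAi, 7.05 and 6.99 under CG9740 RNAi and 7.08 and 7.23 under LacZ RNAi. All 3 had both CP190 arrays clearly above a narrow group of other arrays, with differences from LacZ RNAi of 0.54, 0.61 and 0.52. The measured genes on either side did not share this: fabp, a fatty acid binding protein gene, differed by 0.07 from LacZ RNAi and by 0.04 from CG9740 RNAi, and wkd by -0.13 and -0.11.

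On the X chromosome, DIP-alpha overlaps CG13021, ppk8 and CG2875 in the RefSeq table. The member probe set of ppk8, a gene of the pickpocket sodium channel family, read 7.89 and 8.13 under CP190 RNAi, 7.47 and 7.15 under CG9740 RNAi and 7.40 and 7.52 under LacZ RNAi. Its other probe set differed less, by 0.30 from LacZ RNAi and 0.44 from CG9740 RNAi. CG13021 was too dim for the rule and read 5.74 and 5.92 under CP190 RNAi, 5.31 and 5.37 under CG9740 RNAi and 5.43 and 5.34 under LacZ RNAi, with both CP190 arrays above the rest. CG2875, the next gene, went the other way. It read 10.20 and 10.26 under CP190 RNAi, 10.65 and 10.64 under CG9740 RNAi and 10.63 and 10.64 under LacZ RNAi, and its 4 CG9740 and LacZ arrays lay within a very narrow range above the CP190 arrays. CG2875 left the set without CP190 replicate 1. The measured genes beyond this stretch, Gas8 on one side (0.04 from LacZ RNAi) and Ilp7 on the other (-0.09), were dim and showed little difference.

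On arm 2R, Prx6c and CG11825 are direct neighbours, and both were lower. CG11825 read 8.45 and 8.28 under CP190 RNAi, 8.83 and 9.09 under CG9740 RNAi and 9.11 and 9.43 under LacZ RNAi, a difference of -0.90 from LacZ RNAi and -0.60 from CG9740 RNAi. CG11825 left the set without CG9740 replicate 2 or LacZ replicate 1. A further lower probe set names Prx6b, CG12896 and Prx6c together, so it shares a target with the Prx6c probe set. It read 9.67 and 9.90 under CP190 RNAi, 10.19 and 10.21 under CG9740 RNAi and 10.41 and 10.46 under LacZ RNAi. CkIIalpha-i3 on arm 3L lies next to CG13896, the lower probe set just outside the rule, and on its other side CG13895 was -0.34 from LacZ RNAi and -0.25 from CG9740 RNAi. The direct neighbours of Cp190, by contrast, differed by 0.03 (Zip88E) and 0.04 (CG4338) from LacZ RNAi.

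**Figure D5:**
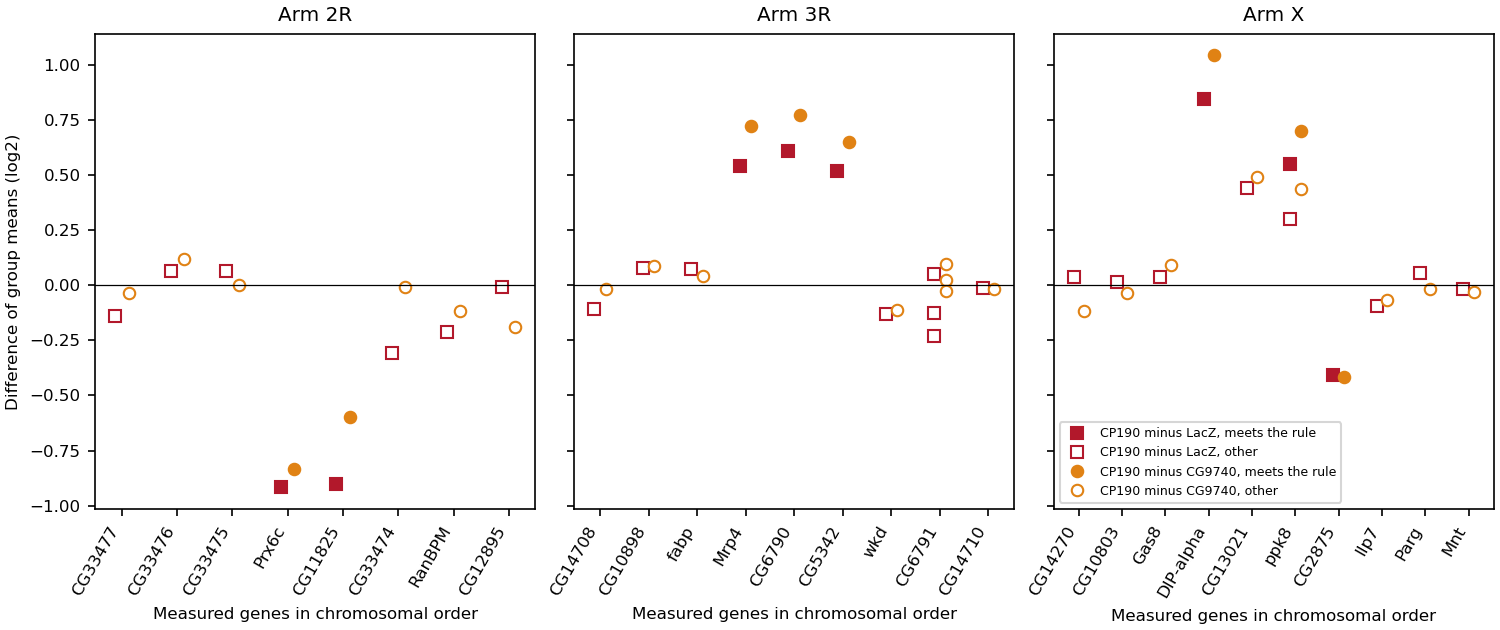
Difference of the CP190 mean from the LacZ mean (squares) and from the CG9740 mean (circles) on the log2 scale for measured genes in chromosomal order around the stretches on arms 2R, 3R and X that hold neighbouring member genes (filled: met the rule, open: did not). On 3R the neighbours Mrp4 and CG6790, which overlap, and CG5342 are all above 0.5 while fabp and wkd on either side are at 0.07 and -0.13 from LacZ RNAi, and on X CG2875 lies below 0 beside the higher DIP-alpha and ppk8.

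Over all member genes, the nearest measured gene on each side was also compared, leaving out those with a probe set in either set and those whose highest group mean was under 6. Such a neighbour was found for 22 higher and 14 lower genes. Next to higher genes, the CP190 mean of the neighbour was the highest of the 3 group means in 13 of 30 pairs (43.3%), against 34.3% of all 6714 genes at that level. Next to lower genes it was the lowest in 11 of 21 pairs (52.4%), against 25.4% of all genes. No test was made of these shares. The neighbours' median difference from LacZ RNAi was small, 0.07 beside the higher genes and -0.06 beside the lower ones. Neighbours can overlap a member gene, as 13 of 26 higher and 8 of 25 lower genes overlap another protein-coding gene. The share of all genes that do so is not given here, so nothing about the members is read from these counts. Whether the labelled product keeps its strand is not given in the sources used here, so signal of overlapping genes cannot be told apart by strand.

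The median gene length was 6.66 kb for the higher and 2.45 kb for the lower genes, beside 2.64 kb for genes with a probe set at a level of at least 6. Of the 26 higher genes with a length, 7 span over 20 kb (26.9%), as did 8 of 25 lower genes (32%), against 7.57% of those 6685 genes. Among genes with a single probe set, 1 of 15 higher (6.67%) and 3 of 20 lower genes (15%) were over 20 kb, against 3.89% of 5988. By arm, the higher genes numbered 8 on X, 2 on 2L, 1 on 2R, 8 on 3L and 7 on 3R, and the lower genes 4 on X, 5 on 2L, 6 on 2R, 3 on 3L and 7 on 3R. The genes at that level lie 17.6% on X, 17.6% on 2L, 20.7% on 2R, 19.1% on 3L and 24.5% on 3R. No member gene lies on chromosome 4.

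Lists of related genes were set beside the members in the comparison of CP190 RNAi with LacZ RNAi. In a limma fit to all probe sets, 0.0799% had a Benjamini-Hochberg adjusted p under 0.05, and 8.57% an unadjusted p under 0.05. The fit passed 4 of the 36 higher member probe sets, where 0.0373% of all probe sets were called higher, and 4 of the 30 lower ones, where 0.0426% were called lower. Against CG9740 RNAi it passed 5 of the 36 (0.0373% of all called higher) and 4 of the 30 (0.0426% called lower). The rule used both contrasts, so nothing is read from these counts. Of 29 insulator and architectural protein genes listed, 24 were measured, with 47 probe sets. Limma passed 1 of these probe sets, that of Cp190, with a list median of -0.04 and 3 probe sets at an unadjusted p under 0.05. Many of these 47 probe sets belong to 1 gene, mod(mdg4), so the list median leans on that gene. The insulator genes su(Hw), CTCF, BEAF-32 and pita were bright, and su(Hw) read 10.51 and 10.16 under CP190 RNAi, 10.46 and 10.09 under CG9740 RNAi and 10.48 and 10.48 under LacZ RNAi. The su(Hw) groups overlapped. BEAF-32 read 10.79 and 10.82 under CP190 RNAi, 10.82 and 10.76 under CG9740 RNAi and 10.82 and 10.87 under LacZ RNAi. Its CP190 arrays overlapped the CG9740 arrays and, before rounding, lay just below both LacZ arrays. The mean difference of BEAF-32 from LacZ RNAi was -0.04.

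Limma passed 0 probe sets of the other 9 lists. Not every listed gene was measured. Measured were 15 of 21 centrosome, 7 of 10 RNA interference, 14 of 33 immune and 6 of 14 heat shock and stress genes. Also measured were 9 of 11 ecdysone, 13 of 19 cell cycle, 5 of 9 apoptosis and 12 of 13 adhesion and matrix genes. The counts that follow are of their probe sets. At an unadjusted p under 0.05 there were 0 of 17 for the centrosome, 2 of 7 for RNA interference, 2 of 16 for the immune response, 1 of 6 for heat shock and stress, 1 of 6 for homeotic genes, 1 of 17 for the ecdysone response, 0 of 15 for the cell cycle, 0 of 6 for apoptosis and 2 of 15 for adhesion and matrix. Their medians lay between -0.08 and 0.07, beside -0.01 over all probe sets. Sid, vir-1, Nazo and PGRP-SC2 are not in the immune and stress lists. Of 8 homeotic genes listed, 4 were measured: pb, Dfd, Scr and Antp. These were dim, with 0 of 6 probe sets above the brightest Bacillus control in CP190 or LacZ RNAi.

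Most hemocyte markers were detected, as the cell line's label would have it. Of 15 probe sets for 14 marker genes, 11 were above the brightest Bacillus control in CP190 RNAi and also 11 in LacZ RNAi, with srp, eater, He and one Pxn probe set bright. The group means of gcm, NimC1, Ppn and vkg lay below that level in both groups, and 2 of the 15, Hml and Ppn, had an unadjusted p under 0.05. Ppn, papilin, read 4.66 and 5.18 under CP190 RNAi, 5.09 and 4.35 under CG9740 RNAi and 5.24 and 6.20 under LacZ RNAi, with its CP190 arrays below the LacZ arrays and overlapping the CG9740 arrays. The summed signal of the 15 on the log2 scale was 14.16 and 14.26 in CP190 RNAi, 14.21 and 14.02 in CG9740 RNAi and 14.33 and 14.26 in LacZ RNAi. Hml, the hemolectin gene, read 8.83 and 9.43 under CP190 RNAi, 10.05 and 9.38 under CG9740 RNAi and 9.93 and 10.38 under LacZ RNAi, so a CP190 array overlapped the CG9740 arrays. Its CP190 difference from LacZ RNAi was -1.02, with a limma adjusted p of 0.412. Above the brightest Bacillus control in CP190 RNAi were 0 of 3 fat body, 0 of 2 muscle, 0 of 2 follicle cell, 0 of 5 tracheal and disc, 1 of 5 crystal cell and lamellocyte, 1 of 4 epithelial, 2 of 5 germline and 5 of 9 neuronal probe sets. The counts in LacZ RNAi were the same but for 1 of 2 in follicle cell and 3 of 9 in neuronal markers. Not every gene of these lists was measured. Measured were 3 of 5 fat body, 2 of 5 muscle, 2 of 4 follicle cell and 2 of 3 tracheal and disc genes. Also measured were 5 of 5 crystal cell and lamellocyte, 3 of 4 epithelial, 3 of 5 germline and 4 of 5 neuronal genes. The germline genes bam and aub and the neuronal gene elav were bright on all arrays, and elav read 9.31 and 9.42 under CP190 RNAi, 9.33 and 9.30 under CG9740 RNAi and 9.07 and 9.39 under LacZ RNAi. In bulk samples, fewer cells of a type and less RNA per cell cannot be told apart. The part of cell makeup in the member differences was not tested.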

How the data were processed

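Total RNA (25 ng per sample) was amplified by a whole transcriptome method and labelled with biotin, per the labels' protocols. The deposited log2 values, 1 per probe set and array, were made by the authors with GCOS and RMA, per the submitters' processing notes. The build, filters and versions were not given in the sources used here. Precision is limited by having 2 arrays per group. The 183 control probe sets were left out, and 0 of them met the rule.

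Genes came from the platform annotation, which names 1 gene for 13647 of 18769 probe sets, several for 402 and none for 4720. Of the 13647, 13544 were found by gene ID in RefSeq's Release 6 table, used for symbols, gene order and length only. The members and lists were chosen with earlier results of these data known. Genes named by rule were the 10 each way ranked by the smaller of the differences from CG9740 and LacZ RNAi, members in the lists, the RNAi targets, the 3 on each side of the threshold and genes with several member probe sets.

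A model with 3 group means was fitted to all 6 arrays and all probe sets with limma (version 3.58.1, R 4.3.3), with Benjamini-Hochberg adjustment, after a test on simulated data. Tables and figures used Python 3.11.15, pandas 2.3.3 and matplotlib 3.10.9. Alternatives covered normalization, thresholds, dim probe sets, variance model, a replicate block and each array left out.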

Additional observations from a re-analysis of the deposited data

How the results depend on the processing

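The rule gave 36 higher and 30 lower probe sets. Quantile normalization, median centring, both level limits and the replicate block kept each count within 1.5 times. A threshold of 0.3 gave 62 higher, and one of 0.5 gave 17 lower. With an array left out, where separation is easier to meet, the counts ran between 29 and 74 higher and between 28 and 49 lower. The replicate block gave 37 and 31, holding all 36 and all 30. The block leaves every group mean unchanged, so only the separation of single arrays could alter these counts. A limit chosen after seeing the data, every group mean above the brightest Bacillus control, left 26 and 23. Over all probe sets limma called 15 in CP190 against LacZ RNAi and 15 in CP190 against CG9740 RNAi. For the first, calls were 8 with only probe sets of a mean of at least 6, 31 with an intensity trend, 37 with only the arrays compared and 2 with the replicate block, and between 0 (without CP190 replicate 1, with 1215 at an unadjusted p under 0.05) and 37 with an array left out. For the second they were 26 with the trend and 4 with the replicate block, and between 3 and 21 with an array left out. The deviations of arrays with the same replicate number from their group means had a correlation of -0.191 between CP190 and CG9740, 0.155 between CP190 and LacZ, and -0.315 between CG9740 and LacZ. The signs differed, so no pairing by number common to all groups was seen. Whether some arrays share a batch was not tested. A replicate block with the CG9740 numbers crossed, added after seeing the data, gave 134 and 43. The causes of these changes were not tested. Dim probe sets compress differences, which limits the members near a level of 6.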
